A study of Mus musculus with 25 samples.

Results

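Brain hemispheres of male C57BL/6 mice were profiled by RNA sequencing at 2, 9, 15, 24 and 30 months of age, with 5 libraries at each age and 25 in all. All mice were of one inbred strain, and the labels record no treatment or genetic change. The genes described here are 94 protein-coding genes that were level from 2 to 15 months and higher at 24 months. They were taken from 17799 genes that passed the filter on low counts, of 47729 in the deposited table, and 12880 of the 17799 were protein-coding with a mean of at least 2 CPM over the 2 to 24 month libraries. CPM are counts scaled to a total of 1 000 000 per library after TMM scaling.

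A gene was taken when all 5 libraries of 24 months lay above all 15 libraries of 2, 9 and 15 months, its 24 month mean was at least 1.2 times its 15 month mean, and its 9 and 15 month means lay within 0.85 to 1.15 of its 2 month mean. The separation of the libraries left 257 genes, the ratio left 125 and the window left 94. Because these values chose the genes, the levels from 2 to 24 months are a description and carry no test. The libraries of 30 months entered the filter on low counts and the TMM scaling, but none of the conditions of the rule. The working description of these genes as stepping up only at 24 months was built into the rule for the ages below 24 months. At 30 months 55 of the 94 lay above all 15 younger libraries in every library, against 5.46% of all genes tested, and 4 of those 5 libraries carried the GC shift described below. In replicate 1 of 30 months, which did not, 65 of the 94 did, against 13%. The GC gap of that library, defined below, was 0.129, still above the 0.121 of the highest younger library. The 13% covers genes of any GC content. The rule also set conditions on the 15 younger libraries, which the genes behind the 5.46% and the 13% did not have to meet. These shares are therefore not a matched background, here or below. Gfap, the gene named as the marker of this pattern, was a member.

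As background, astrocytes carry an intermediate filament network, and in injured or ageing brain they make more of its subunit GFAP and secrete protease inhibitors of the acute-phase type. Microglia, the resident macrophages, make C1q, the recognition molecule of the classical complement pathway, and signal through the adaptor TYROBP. Oligodendrocytes wrap axons in myelin, whose compact layers are held together by myelin basic protein. In bulk tissue, more cells of a type and more RNA per cell cannot be told apart.

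Promoters are shown for members that lead the description below, as the stretch in which the letters of transcription factor sites were looked for. Each runs from 250 bases before to 30 bases after the transcription start that RefSeq gives on GRCm38.p6, read 5′ to 3′ on the gene's own strand. Capitals mark a match to 1 of 6 searched motifs. The Gfap match is to TTCNNNGAA, the STAT gamma-activated site, and the C1qc match is to GAGGAAGT, the PU.1 site, on the other strand.
Gfap, chr11:102897171-102897450, minus strand: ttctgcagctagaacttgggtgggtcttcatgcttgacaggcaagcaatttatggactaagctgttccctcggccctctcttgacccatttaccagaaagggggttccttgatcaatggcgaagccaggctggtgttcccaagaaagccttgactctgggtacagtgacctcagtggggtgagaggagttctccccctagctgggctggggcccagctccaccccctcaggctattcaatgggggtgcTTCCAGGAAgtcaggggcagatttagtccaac
Serpina3n, chr12:104406458-104406737, plus strand: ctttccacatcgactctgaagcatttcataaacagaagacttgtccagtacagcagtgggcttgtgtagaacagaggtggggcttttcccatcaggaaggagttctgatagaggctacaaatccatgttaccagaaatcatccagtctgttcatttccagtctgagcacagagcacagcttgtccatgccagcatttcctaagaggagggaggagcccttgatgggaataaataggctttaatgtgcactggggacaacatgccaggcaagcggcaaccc
C1qc, chr4:136892885-136893164, minus strand: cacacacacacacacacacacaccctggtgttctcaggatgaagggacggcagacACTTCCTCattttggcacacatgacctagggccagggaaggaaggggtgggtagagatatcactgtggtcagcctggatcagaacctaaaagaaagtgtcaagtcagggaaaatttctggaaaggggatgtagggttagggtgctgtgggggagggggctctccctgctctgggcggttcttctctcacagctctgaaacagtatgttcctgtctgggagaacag

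RefSeq's table held a promoter for 70 of the 94 members. In the 250 bases before the start, on both strands, TTCNNNGAA was in 5.71% of members with a promoter and 7.72% of 16522 protein-coding genes. GAGGAAGT was in 4 members, or 5.71%, against 2.64% of genes. The interferon-stimulated response element was in 5.71% against 3.55%, TGANTCA, the AP-1 site, in 5.71% against 7.2%, and AACAAAG, a SOX site, in 5.71% against 5.14%. TGACGTCA, the cAMP response element, was in 0 members and 2.28% of genes. The Gfap match begins 2 bases before the start and runs past it, so it was found only when the search was widened to all 300 bases of the entry, a choice made after the first search was seen. In the wider window TTCNNNGAA was in 7.14% of members and 9.02% of genes, and GAGGAAGT in 8.57% and 3.62%. None of these letters was common to the members. A match is a description of the letters and not of binding.

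Depth ran from 17.8 to 31.3 per library, in units of 1 000 000 counts. Replicates 2 to 5 of 30 months stood apart from every other library by a GC gap of 1.08 to 1.97, where the gap is the median log2 ratio to the mean of the 2 to 24 month libraries in the 10% of transcripts richest in GC, less that in the poorest 10%. It was 0.129 in replicate 1 of 30 months, 0.0562 to 0.147 at 24 months and -0.247 to 0.121 at the younger ages. The counts over all members at 30 months are therefore given as deposited, after a correction of each library for transcript GC content, and with replicate 1 as the lone 30 month library. Values for single genes are as deposited unless said, and with replicate 1 alone 0 of the 94 members were called higher from 24 to 30 months. Albumin RNA, a liver transcript, was at 38.5 to 171 CPM at 24 months and at 0 to 128 CPM in the younger libraries. Of the 20 genes in a liver list 0 were members, but the rule asked for level means from 2 to 15 months. The median log2 change of that list from 2 months was -0.92 at 9 months and 0.88 at 15 months. Many of its genes therefore could not pass the rule, and the count of 0 was not a test of liver RNA. Albumin at 30 months was at 125 CPM in replicate 3 and at most 0.3 CPM in the others. The part of liver RNA in the step at 24 months was not tested beyond a liver covariate, with which 45 members in place of 54 passed in the contrast below. The labels call the libraries separate samples and say no more on how replicates were taken, so p-values measure the spread between these samples.

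The step at 24 months was small for most members. The ratio of the 24 to the 15 month mean ran from 1.2 to 2.17 with a median of 1.28, and 56 of 94 were under 1.3. Only 7 members reached 1.5, namely Serpina3n, A2m, Capg, Gfap, Lgals3bp, Txnip and Cd84. Just inside the threshold lay Cyp4v3, Myo5c and Pbxip1, at 1.203, 1.203 and 1.202. Just outside lay Stac2 at 1.2, Unk at 1.199 and Laptm5 at 1.198, each under the threshold before rounding. In the contrast the rule itself used, edgeR called 54 of the 94 higher at 24 than at 15 months, where 0.882% of all genes tested were higher, and 0 lower, against 0.247%. That count ran from 4 to 85 as single libraries were left out, and nothing is read from it.

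**Figure D1:**
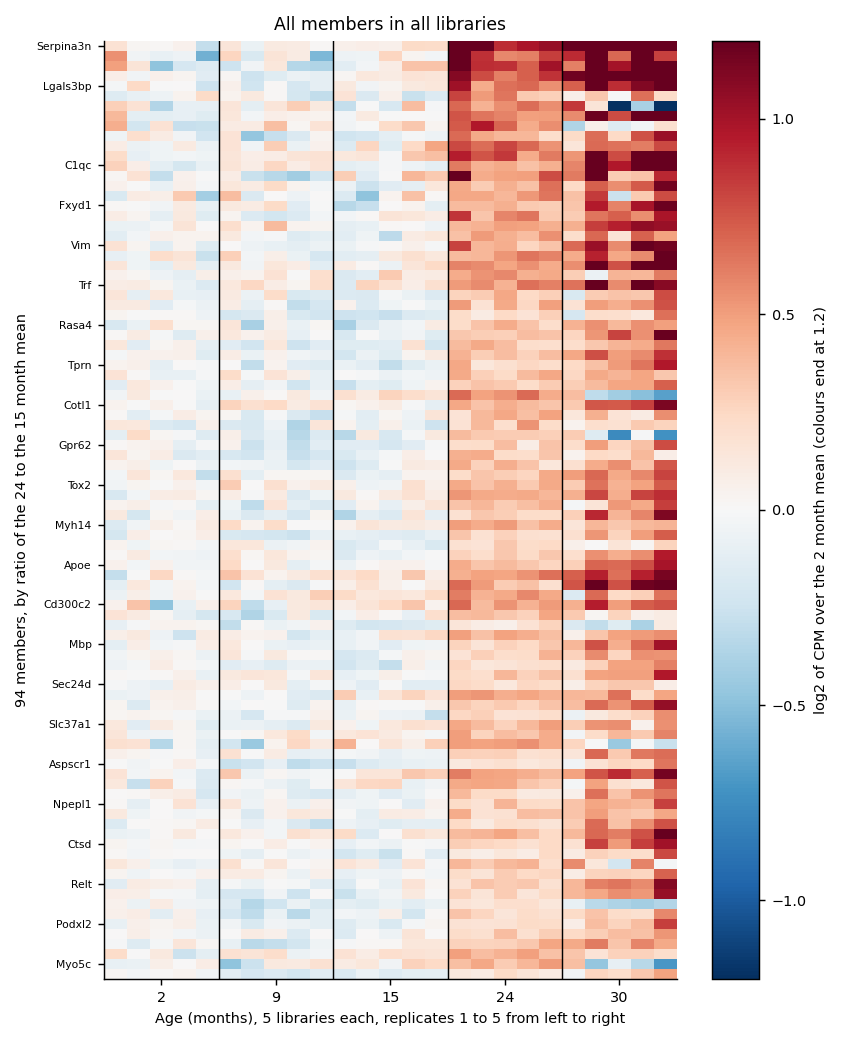
Each row is 1 of the 94 members and each column 1 of the 25 libraries, ordered by age and replicate. Colour gives the log2 of CPM over the 2 month mean, with the scale ending at 1.2. The 24 month columns are warm throughout because the rule asked for it, while the 30 month columns hold both the darkest and some blue cells.

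A first group of 5 members, formed after values were seen, holds genes of intermediate filaments and of secreted proteins, with ratios of 1.39 to 2.17. Gfap, the astrocyte filament subunit (ENSMUSG00000020932, chr11:102887336-102900912, minus strand, GRCm38), was at 172 to 228 CPM with a median of 208 in the 15 younger libraries. At 24 months its libraries were at 440, 352, 310, 335 and 373 CPM, and at 30 months at 458, 697, 475, 711 and 705 CPM. All 5 libraries of 30 months lay above all of 24 months. Gfap was 362 ± 49.2 CPM (SD, n = 5) at 24 months and 609 ± 131 CPM (SD, n = 5) at 30 months. By edgeR's quasi-likelihood test, adjusted over all genes, the log2 fold change from 24 to 30 months was 0.75 ± 0.11 (SE, adjusted p = 1.6e-05). After the GC correction it was 0.55 (adjusted p = 0.00013), and with replicate 1 as the lone 30 month library it was 0.33 (adjusted p = 0.19).

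Serpina3n, a secreted inhibitor of serine proteases (ENSMUSG00000021091, chr12:104406729-104414329, plus strand), had the highest ratio of all members. It was at 14.1 to 20.1 CPM with a median of 17.9 in the younger libraries. At 24 months it was at 62.6, 40.8, 31.7, 33.8 and 35.5 CPM, and at 30 months at 46.3, 111, 46.9, 118 and 86 CPM. The 30 month libraries overlapped those of 24 months, since 2 of them lay below the highest of 24 months. Its change from 24 to 30 months was 0.99 ± 0.21 (log2, SE, edgeR adjusted p = 0.00035), 0.89 after the GC correction (adjusted p = 0.0021) and 0.17 with replicate 1 alone (adjusted p = 0.82).

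Vim, which encodes the filament subunit vimentin, moved less. Its younger libraries were at 39.4 to 49.2 CPM, its 24 month libraries at 76.6, 57.6, 58.9, 52.2 and 55.6 CPM and its 30 month libraries at 70.1, 89.7, 64.7, 100.03 and 97.4 CPM. A2m, a broad protease inhibitor of plasma, was at 7.26 to 15.8 CPM in the younger libraries and at 27.9, 19.9, 16.2, 16.5 and 19.2 CPM at 24 months. The A2m libraries of 30 months, at 20.1, 30.2, 17.5, 34.5 and 19.1 CPM, overlapped those of 24 months, and its log2 change of 0.28 did not pass the test (edgeR adjusted p = 0.22). Lgals3bp, a secreted glycoprotein that binds galectins, was at 36.1 ± 5.68 CPM at 24 and 49.1 ± 10.7 CPM at 30 months (SD, n = 5 each, edgeR adjusted p = 0.0029, 0.064 after the GC correction and 0.97 with replicate 1 alone). In all 5 genes of this group every 30 month library lay above all 15 younger libraries, against 5.46% of all genes.

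The reactive astrocyte list held 24 tested genes. Of these 3 were members, namely Gfap, Vim and Serpina3n. The rule chose these 3 as high at 24 months, and the counts for the list include them. From 2 to 30 months 13 of the 24 were higher and 3 lower, where 28.5% and 29.5% of all genes were. With replicate 1 alone 6 were higher and 0 lower, against 5.19% and 3.34%. The homeostatic astrocyte list held 17 tested genes and 0 members, with 10 higher and 3 lower from 2 to 30 months, and 2 and 0 with replicate 1 alone. Of 16 tested genes of the intermediate filament list, only Gfap and Vim were members.

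**Figure D2:**
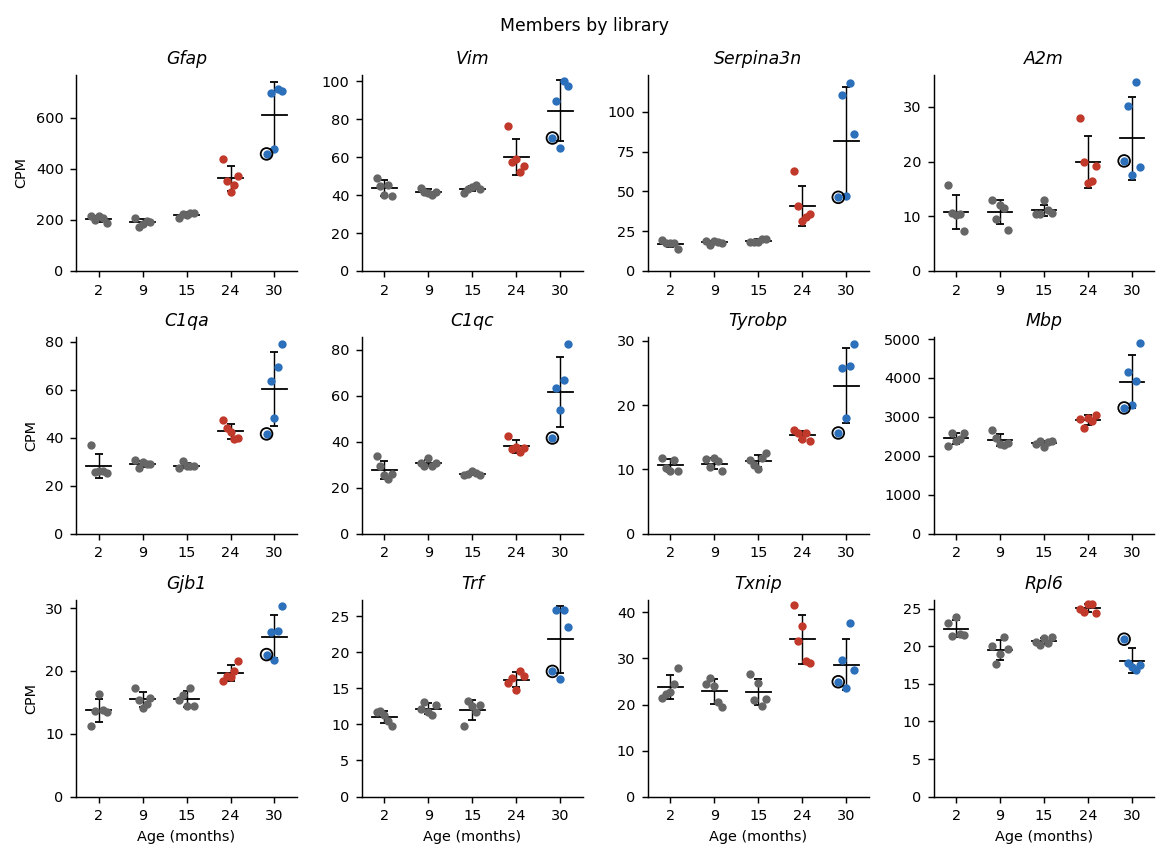
CPM of 12 members by age, with 1 point per library, the mean as a bar and ± 1 SD (n = 5) as whiskers. Red marks 24 months, blue 30 months and a ring replicate 1 of 30 months. In Gfap the 30 month points, 458 to 711 CPM, lie above the 24 month points, while in Rpl6 they lie below.

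A group of 10 members, formed after values were seen, is known from myeloid cells. The counts over the group depend on which genes were placed in it. Replicate 1 of 30 months lay above all 15 younger libraries in 10 of the 10, against 13% of all genes, and all 5 libraries of 30 months did in 8, against 5.46%. From 24 to 30 months 5 were higher and 1 lower as deposited, against 25.5% and 29% of all genes. After the GC correction 2 were higher, close to the 20.9% of all genes, and 0 lower, against 20%. C1qa and C1qc, which encode chains of C1q, lie 2852 bases apart on chromosome 4. C1qa was at 25.5 to 36.9 CPM with a median of 28.1 in the younger libraries, at 47.3, 43.9, 42.4, 39.6 and 39.8 CPM at 24 months, and at 41.6, 63.5, 48.4, 69.3 and 79 CPM at 30 months. Replicate 1 of 30 months thus fell among the 24 month libraries. C1qc was at 23.8 to 33.6 CPM in the younger libraries, at 42.5, 36.9, 37.8, 35.3 and 37.2 CPM at 24 months and at 41.6, 63.2, 54, 66.9 and 82.4 CPM at 30 months. C1qb, the third chain, had a ratio of 1.37 but at least 1 of its 24 month libraries was not above all younger ones, so the rule left it out.

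Tyrobp, the adaptor of the receptor TREM2, was at 9.71 to 12.6 CPM in the younger libraries and at 16.1, 15.7, 14.8, 15.6 and 14.5 CPM at 24 months. At 30 months it was at 15.7, 25.8, 18.1, 26 and 29.5 CPM, with replicate 1 again at the level of 24 months. Itgb2, the beta chain of leukocyte integrins, was at 11.3 ± 1.5 CPM at 24 and 14 ± 3.08 CPM at 30 months (SD, n = 5 each, edgeR adjusted p = 0.028, 0.22 after the GC correction and 0.52 with replicate 1 alone, where the change was -0.21). Capg, an actin filament capping protein of macrophages, was at 4.55 ± 0.668 and 5.76 ± 1.62 CPM (SD, n = 5 each), which did not pass (edgeR adjusted p = 0.1). Cd84, a receptor of leukocytes with few counts (11 in its lowest library), was at 2.41 to 2.91 CPM at 24 months and at 3.25, 2.01, 0.62, 1.38 and 0.534 CPM at 30 months. Its transcript is 39.3% GC, and only replicate 1 of 30 months lay above the younger libraries.

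The disease-associated microglia list, genes that microglia raise around amyloid and in ageing, held 25 tested genes. Of these 5 were members, namely Tyrobp, Apoe, Ctsd, Cd9 and Csf1. The rule chose these 5 as high at 24 months, and the counts for the list include them. From 2 to 30 months 21 of the 25 were higher and 4 lower, against 28.5% and 29.5% of all genes. With replicate 1 alone 16 were higher and 0 lower, against 5.19% and 3.34%. Of the 14 homeostatic microglia genes only Aif1, an actin-binding protein of macrophages, was a member.

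A group of 7 members, also formed after values were seen, is known from oligodendrocytes. Of these, 6 lay above all younger libraries in replicate 1 of 30 months, against 13% of all genes. In all 5 libraries of 30 months 6 did so, against 5.46%. Mbp, which encodes myelin basic protein, was at 2234 to 2674 CPM in the younger libraries, at 2955, 2727, 2965, 2886 and 3055 CPM at 24 months and at 3231, 4148, 3316, 3915 and 4911 CPM at 30 months. All 5 libraries of 30 months lay above all of 24 months, as they did for Gjb1, the gap junction protein connexin 32. Gjb1 was at 19.6 ± 1.25 CPM at 24 and 25.4 ± 3.43 CPM at 30 months (SD, n = 5 each, edgeR adjusted p = 0.0012, 0.12 after the GC correction and 0.47 with replicate 1 alone). Trf, the iron carrier transferrin, was at 16.2 ± 1.01 and 21.8 ± 4.62 CPM (SD, n = 5 each, edgeR adjusted p = 0.0017, 0.015 after the GC correction and 0.77 with replicate 1 alone). These 3 were the only members among 20 tested myelin genes. Of the 20 genes, these 3 included, 10 were higher and 6 lower from 24 to 30 months as deposited, against 25.5% and 29% of all genes. From 2 to 30 months 10 were higher and 7 lower, against 28.5% and 29.5%. With replicate 1 alone the median log2 change of the list was 0.08 from 24 to 30 months and 0.04 from 2 to 30 months.

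A further 9 members, grouped after values were seen, handle redox, metals and lipids. From 24 to 30 months 4 were higher and 1 lower as deposited, against 25.5% and 29% of all genes. After the GC correction 1 was higher and 3 lower, against 20.9% and 20%. Txnip, an inhibitor of thioredoxin, was at 19.4 to 27.9 CPM in the younger libraries, at 41.6, 33.8, 37, 29.5 and 29 CPM at 24 months and at 24.9, 29.6, 23.6, 37.6 and 27.6 CPM at 30 months. Its 30 month libraries overlapped both the younger ones and those of 24 months. Apoe, the lipid carrier of brain lipoproteins, had a mean of 970 ± 46.9 CPM at 24 and 1239 ± 207 CPM at 30 months (SD, n = 5 each), and replicate 1 of 30 months was at 931 CPM. Ftl1, the light chain of ferritin, lay higher in all 5 libraries of 30 months than in all of 24 months, and a pseudogene carries its name, so its counts may be shared. Over the group, replicate 1 of 30 months lay above all younger libraries in 3 of the 9 genes, against 13% of all genes.

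A group of 4 members, formed after values were seen, holds the ribosomal genes Rpl6 and Rps15 with Fbl and Tpt1. Replicate 1 of 30 months lay within the younger range for them, above all younger libraries for 0 of the 4, against 13% of all genes. That is 1 library. Of the 5 libraries of 30 months, 4 lay above all younger ones for Rps15, 4 for Fbl, 2 for Tpt1 and 0 for Rpl6. Rpl6, a protein of the large ribosomal subunit, was at 17.7 to 23.9 CPM in the younger libraries and at 25, 24.6, 25.7, 25.6 and 24.5 CPM at 24 months. At 30 months it was at 21, 17.8, 17.3, 16.8 and 17.5 CPM, below every 24 month library. Rps15, a protein of the small subunit, was the only member among 22 tested genes of the cytosolic ribosome list.

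Across the members, the 30 month libraries, whose levels entered none of the rule's conditions, can be set against the younger ages. The levels of the younger libraries did enter those conditions, so the shares over all genes are not a matched background. All 5 libraries of 30 months lay above all 15 of 2 to 15 months for 55 of 94 members, against 5.46% of all genes tested. Replicate 1 of 30 months lay above all 15 for 65 of 94, against 13% of all genes, of any GC content. Its GC gap was within the range of the 24 month libraries and above that of every younger library. By number of 30 month libraries above the younger ones, 3 members had 0, 5 had 1, 7 had 2, 8 had 3 and 16 had 4. Spidr and Rpl6 were among those with 0.

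From 2 to 30 months, edgeR called 81 of 94 members higher, against 28.5% of all genes, and 2 lower, against 29.5%. The median log2 fold change of the members was 0.47. The levels of the 2 month libraries were among those that chose the members, and those of the 30 month libraries were not. After the GC correction 63 were higher, against 23.6% of genes, and 3 lower, against 22.1%, with a median of 0.28. With replicate 1 as the lone library of 30 months, 32 were higher, against 5.19% of genes, and 0 lower, against 3.34%, with a median of 0.28. In that fit 53 were higher and 1 lower at an unadjusted p under 0.05, and no other tool was run on it. The spread of that lone library had to be borrowed from the other ages. In all 3 fits 28 members were higher, among them Gfap (log2 1.58, 1.34 and 1.16 as deposited, GC-corrected and with replicate 1), Serpina3n (2.25, 2.13 and 1.42), Vim (0.95, 1.17 and 0.68) and Mbp (0.67, 0.60 and 0.39).

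**Figure D3:**
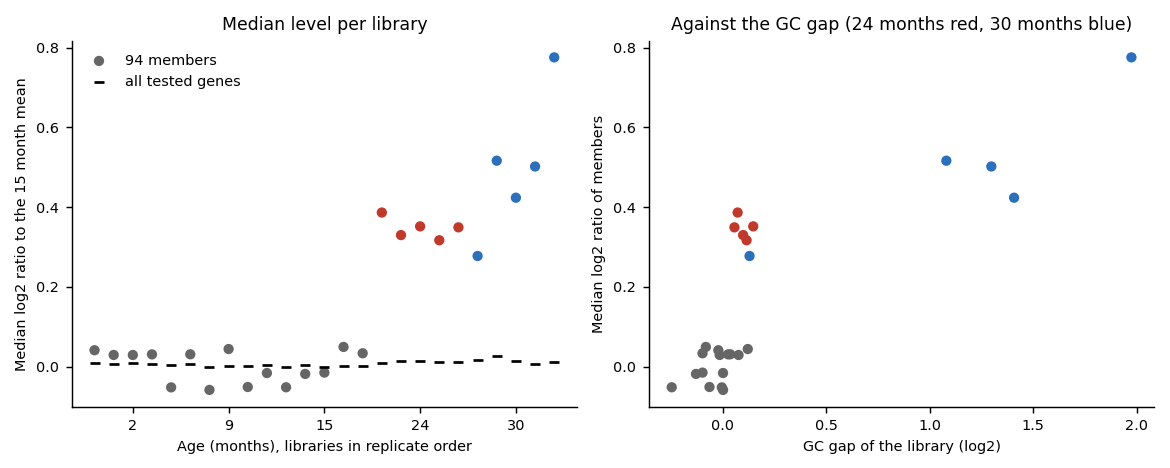
Left, the median over the 94 members of the log2 ratio to the 15 month mean in each library, with dashes for all genes tested. Right, the same medians against the GC gap of the library, with 24 months in red and 30 months in blue. Replicate 1 of 30 months, at 0.28, lies near the 24 month libraries on both axes, and replicates 2 to 5 lie at larger gaps with medians of 0.42 to 0.78.

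Whether the members rose further from 24 to 30 months depended on how the 30 month libraries were treated. As deposited, 42 of 94 were higher, against 25.5% of all genes, and 9 lower, against 29%, with a median of 0.17. After the GC correction 15 were higher, against 20.9%, and 24 lower, against 20%, with a median of -0.03. With replicate 1 alone 0 were higher, against 2.76%, and 7 lower, against 1.09%, with a median of -0.09. At an unadjusted p under 0.05, edgeR had 2 higher and 20 lower in that fit, and no other tool was run on it. In that library 28 of 94 members lay above the 24 month mean, against 50.2% of all genes, and the level was 0.48 to 1.26 times that mean with a median of 0.95. The 24 month libraries were chosen as high by the rule, which bears on every comparison with them.

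The 15 members higher both as deposited and after the correction included Serpina3n, Gfap, Vim, C1qc, Tyrobp, Mbp, Trf, Ctsd and S100a6. S100a6, a calcium-binding protein, was at 9.73 ± 1.31 CPM at 24 and 15.4 ± 2.93 CPM at 30 months (SD, n = 5 each, log2 0.66, edgeR adjusted p = 4.2e-05, and 0.33 with an adjusted p of 0.18 with replicate 1 alone). The 8 members lower in both included Fhad1, Ttc12, Ccdc9b, Stmn1, Spidr, Rpl6 and Myo5c. Fhad1, which encodes a protein with a forkhead-associated domain, was at 6.98 to 8.88 CPM in the younger libraries and at 11.8, 10.4, 10.8, 11.9 and 10.1 CPM at 24 months. At 30 months it was at 9.54, 5.98, 5.54, 5.24 and 4.71 CPM, so that replicate 1 lay above the younger libraries and the others below the lowest of them. Its change from 24 to 30 months was -0.82 ± 0.12 (log2, SE, edgeR adjusted p = 2e-05), and with replicate 1 alone it was -0.21 (adjusted p = 0.39). All 5 libraries of 30 months lay above all of 24 months for 9 members, against 8.08% of genes, and below for 5, against 8.46%.

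**Figure D4:**
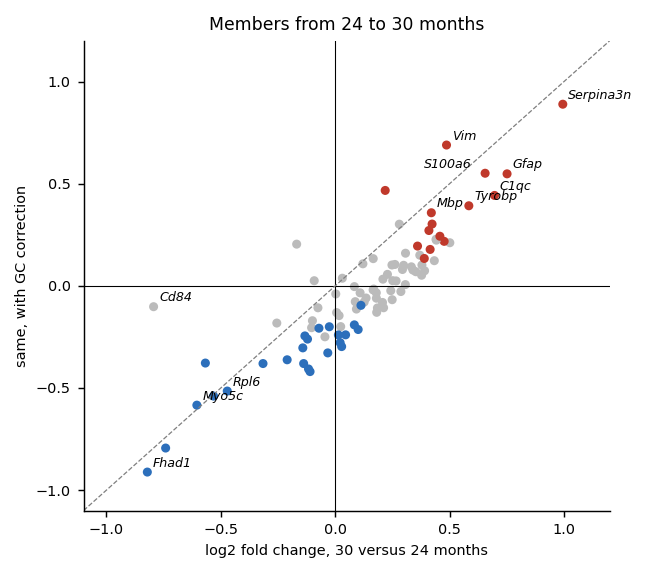
Log2 fold change from 24 to 30 months of each member as deposited (horizontal) and after the GC correction (vertical), with the line of equality dashed. Red and blue mark members higher and lower by edgeR after the correction. Serpina3n lies at 0.99 and 0.89, and most grey points lie below the line.

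The members shared a feature that the rule did not use, a high GC content of the transcript. Their median was 55.3%, against 49.8% for the 12874 genes that could be taken and had a value. In 4 equal groups by GC content, from lowest to highest, the members numbered 2, 9, 32 and 51, that is 0.0621%, 0.280%, 0.994% and 1.58% of the genes in each group. The same rule mirrored, with 24 months below, took 35 genes with a median of 41.8%, and these numbered 21, 10, 4 and 0 by group. Over all genes that could be taken, the median ratio of the 24 to the 15 month mean was 0.944, 0.982, 1.03 and 1.08 by group. The libraries of 15 months had GC gaps of -0.247 to -0.0819 and those of 24 months of 0.0562 to 0.147. The part of GC content in the step was not tested.

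**Figure D5:**
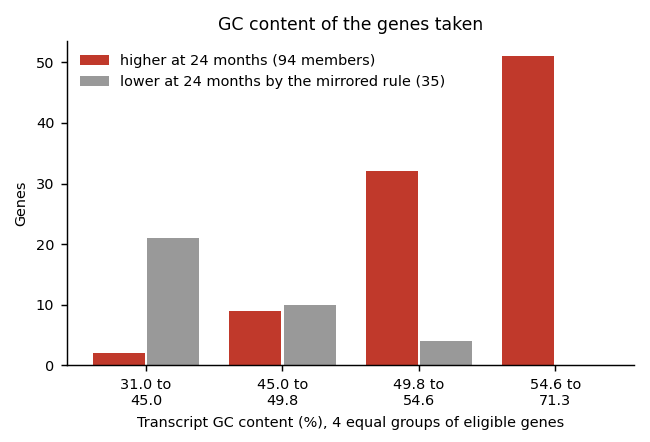
Number of genes in each of 4 equal groups of the genes that could be taken, split by transcript GC content. Red bars are the 94 members and grey bars the 35 genes of the mirrored rule. Members rise from 2 to 51 across the groups, and the mirrored genes fall from 21 to 0.

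After the GC correction 56 of the 94 members still had a ratio of at least 1.2, and their median ratio was 1.22. Gfap kept 1.55, Serpina3n 2.12, Vim 1.42 and A2m 1.81, while Apoe was at 1.16 and Ctsd at 1.14. The rule run on GC-corrected CPM took 48 genes, of which 44 were members. Of the 47 members with the higher GC content, 27 were higher and 0 lower from 24 to 30 months as deposited. Of the 47 with the lower, 15 were higher and 9 lower. Over all genes tested, of any GC content, 25.5% were higher and 29% lower. Other genes of like GC content were not counted apart.

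By annotation, 51 members overlapped no other gene and 43 did, 34 of them a gene on the opposite strand. The sources used here do not state whether counting used strand, so reads of such pairs may be shared, which touches Gfap, Txnip, Mbp, Fhad1, Cd9, Ftl1, Spidr, Olig1 and Cebpa among the genes named. Cd9, Tpt1, Ftl1 and Rps15 each have a pseudogene that carries their name.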

How the data were processed

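Base calls, alignment and counting were done by the authors with CASAVA 1.7, STAR 2.4.1d on GRCm38 and featureCounts 1.4.6-p4, per the submitters' processing notes; libraries were TruSeq, per the labels' protocols. The deposited counts per Ensembl gene were used as they are. The deposited RPKM values served as an alternative only, since only 4% of their cells used the matching library's total as divisor. Symbols, positions and GC content came from GENCODE M21, which matched 47310 of 47729 genes.

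The counts were fitted with edgeR 4.0.16 under R 4.3.3 (filterByExpr, TMM, robust quasi-likelihood fit of all 25 libraries with a mean per age). P-values are two-sided, adjusted by Benjamini and Hochberg over all 17799 genes tested (19208 with replicate 1 as the lone 30 month library), at 0.05. Per-library medians use log2(CPM + 0.5). The GC correction enters a trend over 20 bins of transcript GC content per library as an offset. The scripts were tested on simulated data. Alternatives were RLE factors, library totals, no filter, DESeq2 1.42.0, limma-voom (limma 3.58.1), other thresholds, a liver covariate and leaving out libraries.

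The members, the gene lists and the groups by role were chosen with earlier results of these data known, the groups by role after values were seen. Genes named were the 20 with the highest ratio, those in a list, those next to the threshold, and the 5 with the largest rise and fall from 24 to 30 months; others named in the text (Ftl1, Rpl6, Ttc12, Ccdc9b, Stmn1 and genes outside the members among them) were picked after their values were seen. Some genes are not reported here.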

Additional observations from a re-analysis of the deposited data

Results flagged for a closer look

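Of 65 groups of 5 libraries looked at, 5 had a library whose gap to its nearest neighbour exceeded 0.71 of the group's range (Dixon's 95% value), and chance flags about 1 in 20 groups. The median of the members in 1 library of 2 months, replicate 5, was -0.052 on the log2 scale relative to the 15 month mean, below the other libraries of that age. C1qa was high in 1 library of 2 months at 36.9 CPM and in 1 of 15 months at 30.2 CPM. Vim was high in 1 library of 24 months at 76.6 CPM. Rpl6 was high in 1 library of 30 months at 21 CPM, which was replicate 1.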

How the results depend on the processing

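The rule took 83 to 116 genes when libraries were left out in turn. It took 48 on GC-corrected values, 189 with a ratio threshold of 1.1, 38 with 1.3 and 2 on the deposited RPKM values. The count of members higher at 24 than at 15 months, 54, ran from 4 without replicate 1 of 15 months to 85 without replicate 5 of 30 months when libraries were left out in turn. It was 34 and 33 without replicates 3 and 4 of 2 months, 4 to 27 without any 1 library of 15 months and 8 to 32 without any 1 of 24 months, and 92 without replicates 2 to 5 of 30 months together. From 24 to 30 months, all genes higher ran from 3916 to 5366 and lower from 4701 to 5944 when libraries were left out in turn. Members higher ran from 30 to 50 and lower from 8 to 11. They were 15 and 24 with the GC correction, and 0 were higher without replicates 2 to 5 of 30 months, with or without that correction. From 2 to 30 months, all genes higher ran from 4389 to 5674 and lower from 4870 to 5933 when libraries were left out in turn. Members higher ran from 76 to 82 and lower from 1 to 6. Lower was 1 without replicate 3, 4 or 5 of 2 months or 2, 3 or 4 of 30 months, and 6 without replicate 1 of 30 months. Higher were 32 without replicates 2 to 5 and 31 with the correction as well, and lower were then 0. Lower was 1 with RLE factors, library totals, no filter or DESeq2.

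The median change of the members from 24 to 30 months reversed to -0.085 without replicates 2 to 5, -0.031 with the GC correction and -0.086 with both. Without replicates 2 to 5, and then also with the GC correction, single members reversed from 24 to 30 months on the log2 scale, with Cd84 0.26 and 0.29; C1qa -0.042 and -0.038; Itgb2 -0.21 and -0.19; Tppp3 -0.22 and -0.20. The others were Fxyd1 -0.037 and -0.026, Cebpa -0.022 and -0.037, Csf1 -0.042 and -0.016, Cd9 -0.048 and -0.038, Olig1 -0.083 and -0.10, Apoe -0.067 and -0.062, Ctsd -0.071 and -0.042. Olig1 reversed to -0.028 with the correction alone. From 2 to 30 months, Rps15 reversed to -0.019 with the correction, and Pbxip1 to -0.0504 and -0.053 without replicates 2 to 5. The cause was not tested. Of 25 named members that passed from 24 to 30 months, 20 did so with each library left out in turn and 1 under every alternative run. Of 31 that passed from 2 to 30 months, 30 and 16 did. No paired analysis was possible because replicate numbers follow accession order and pair no animals. The added GC and replicate 1 alternatives to the rule and contrasts were chosen after seeing the data. Depth limits the members with few counts, since 74 of 94 had at least 100 in every library.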
